A study of Homo sapiens with 6 samples.

Results

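The genes described here build the precursor of N-linked glycans, pass it to protein, trim it and branch it. They were measured in the human colon cancer cell line HCT-15, an established line, on 3 arrays of untreated cells and 3 arrays of cells treated with 5-aza-2'-deoxycytidine. This drug resembles cytosine, enters DNA during replication and traps DNA methyltransferases, so that methylation is lost as cells divide. The list of 43 genes was drawn up by pathway and was not chosen on a measured threshold, though earlier results of these data were known. Of these, 33 genes were found by the RefSeq transcript in the name of a probe set, with 34 probe sets among the 1259 of the table, which covers 927 named genes. The other 10 (DPM2, DOLK, DOLPP1, STT3A, STT3B, TUSC3, MAGT1, MGAT4C, MOGS and GANAB) were not matched and were not analysed here. A further 216 probe sets carry no gene name here and could hold some of them.

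Both groups come from a single cell line and differ in the labels by the drug alone. Dose and duration are not stated in the labels. Whether replicates are separate cultures is not stated either, so the p-values reflect only how far these arrays spread, and that spread may be technical. Untreated replicate 3 has the word treated in its title. Source name and treatment entry both call that array untreated, and these 2 labels set its group. The titles of all treated arrays hold the word control beside treated, while their treatment entry says treated. Array medians lay between 5.81 and 5.92, and arrays correlated at 0.9974 to 0.9987 within a group and at 0.9817 to 0.9844 across groups. Of the colon epithelial markers listed for a check of the cell line, 4 of 11 were measured (LGALS4, MUC13, MUC2 and MUC1), and their mean level was 7.56 to 7.59 on untreated and 7.97 to 8.12 on treated arrays, with MUC1 and MUC13 called higher and LGALS4 called lower in treated cells. For leukocyte markers (5 of 8 measured) the mean level was 4.58 to 4.70 and 4.62 to 4.77, and for stromal and endothelial markers (6 of 10) 3.93 to 4.11 and 4.09 to 4.16. Of the leukocyte markers 1 was called higher and 1 lower, and of the stromal and endothelial markers 2 higher and 0 lower. The part of these markers in the results below was not tested. EPCAM, CDH1 and PTPRC are among the markers with no matched probe set. The number of arrays limits the precision. All values are log2 values as the authors deposited them, levels of different genes are not compared, and in bulk RNA fewer cells with a transcript cannot be told apart from less transcript per cell.

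N-glycans begin as an oligosaccharide of N-acetylglucosamine, mannose and glucose that is assembled on the lipid dolichol in the membrane of the endoplasmic reticulum. The oligosaccharyltransferase complex moves the finished oligosaccharide to asparagine residues of proteins entering the secretory pathway. Glucosidases and mannosidases then trim it, and Golgi N-acetylglucosaminyltransferases start the branches on which galactose, fucose and sialic acid are placed, so these enzymes set how many ends a glycoprotein offers for terminal epitopes such as sialyl Lewis x.

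Transcripts of precursor assembly were lower in treated cells for 7 of 15 measured genes, led by DPM3 (2.61-fold lower), ALG9 (1.67-fold lower) and ALG14 (1.52-fold lower), and higher for ALG10 alone. No measured subunit gene of the oligosaccharyltransferase was called. In trimming, 3 mannosidase genes fell and MAN2A1 rose, and among branching enzymes and the core fucosyltransferase FUT8 fell and MGAT5B rose. Called means an adjusted p under 0.05 in limma, with Benjamini-Hochberg adjustment over all 1259 probe sets. Of the 33 genes 14 were called (42.4%), against 34.8% of all probe sets on the array. The 3 rises (9.09%) stood against 18.0% of probe sets called higher, and the 11 falls (33.3%) against 16.8% called lower. Counted by gene, as the members are, 37.3% of the 927 named genes were called, 19.7% higher and 17.6% lower. With probe sets of a mean level below 4.90 left out, 360 of the remaining 839 were called, 168 higher and 192 lower. These are larger shares than over all 1259. Among the members, 31 of whose 34 probe sets remained, 3 rises and 11 falls were still called. The shares over all probe sets, used below as well, include the dim ones. The median log2 change of the 33 genes was -0.08, and the median of all probe sets was -0.01. Their median absolute log2 change was 0.22, against 0.15 over all probe sets. At 1.5-fold or more 3 genes were called (DPM3, ALG9 and ALG14), against 13.4% of probe sets. In 16 genes (48.5%) treated and untreated values lay apart, as in 46.1% of probe sets and 48% of named genes. Of these 16, 4 were higher (22.7% of probe sets were apart and higher) and 12 lower (23.4% of probe sets).

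**Figure D1:**
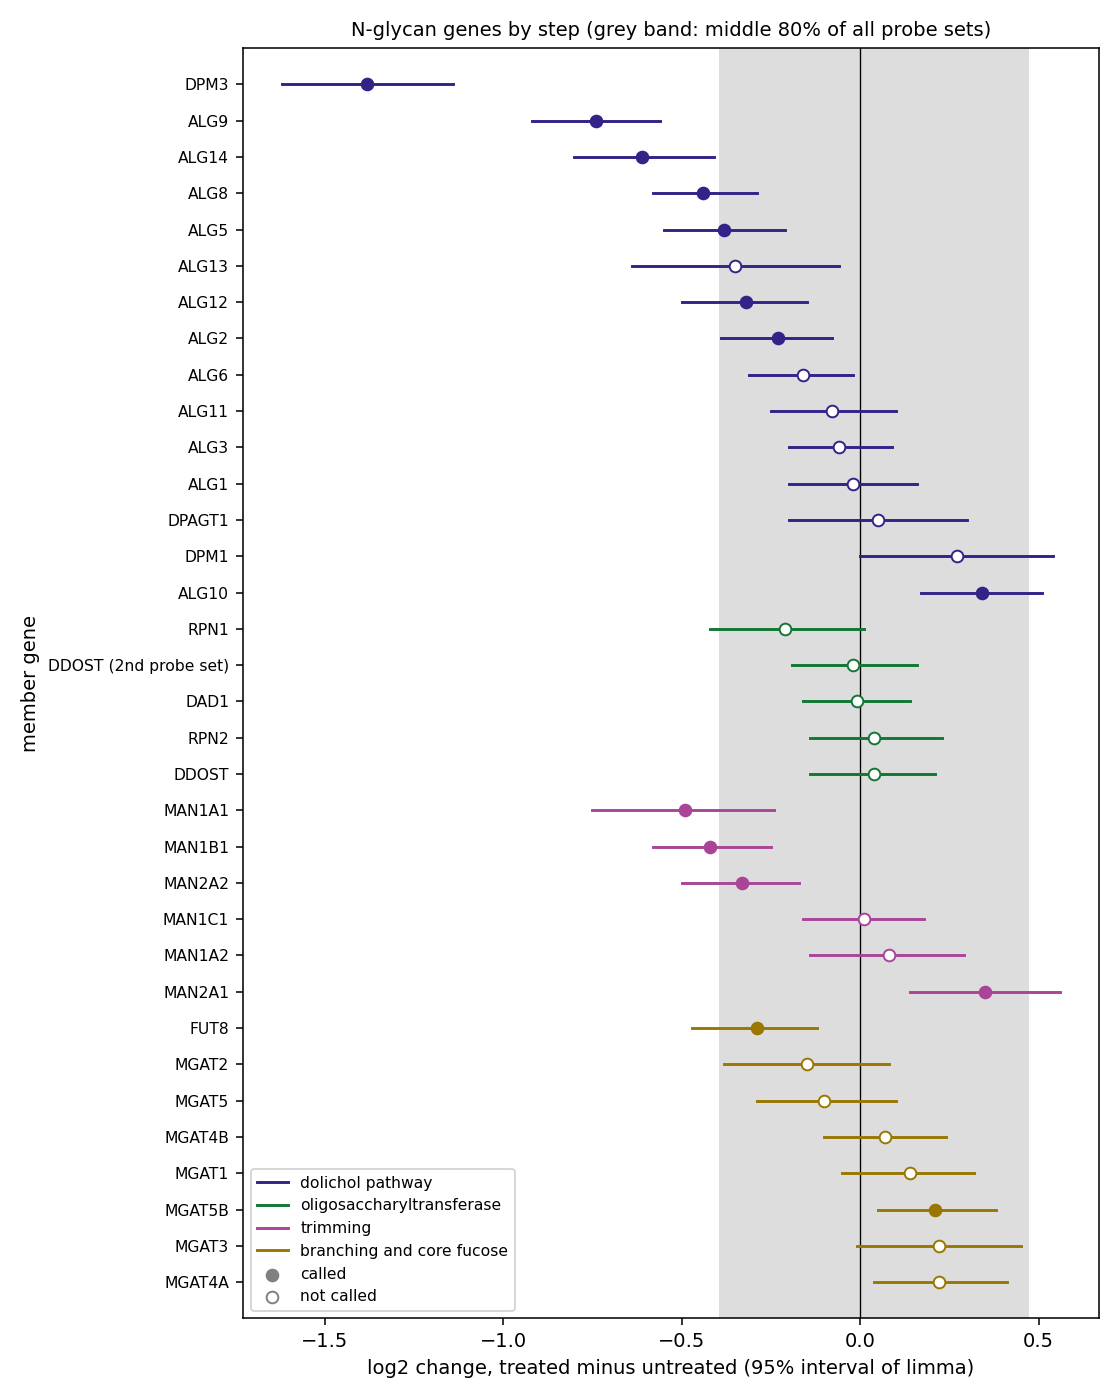
Log2 change in treated minus untreated cells (horizontal axis) of the 34 probe sets (vertical axis), with the 95% interval of limma's fit, grouped by step and ordered by size. Filled points were called, open points were not, and the grey band from -0.39 to 0.47 holds the middle 80% of the log2 changes of all 1259 probe sets. DPM3 at -1.38 lies farthest from 0, and the 5 probe sets of the oligosaccharyltransferase all lie between -0.21 and 0.04.

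Because the drug leads to loss of DNA methylation, the DNA before the start of the genes with the largest changes is shown with its CpG dinucleotides. These are the 250 bases before the most upstream RefSeq start of the 3 genes past 1.5-fold, on the minus strand of GRCh38.p14, with CpG in capitals. The windows are chr1:155140532-155140781 for DPM3, chr11:111871582-111871831 for ALG9 and chr1:95072952-95073201 for ALG14, and no gene of the RefSeq table overlaps them. Methylation was not measured in these data.
DPM3: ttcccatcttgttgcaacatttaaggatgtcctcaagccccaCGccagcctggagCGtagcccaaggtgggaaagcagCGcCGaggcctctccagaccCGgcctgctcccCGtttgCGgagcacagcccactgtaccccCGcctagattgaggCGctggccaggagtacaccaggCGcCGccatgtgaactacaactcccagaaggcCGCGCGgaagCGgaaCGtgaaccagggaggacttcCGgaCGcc
ALG9: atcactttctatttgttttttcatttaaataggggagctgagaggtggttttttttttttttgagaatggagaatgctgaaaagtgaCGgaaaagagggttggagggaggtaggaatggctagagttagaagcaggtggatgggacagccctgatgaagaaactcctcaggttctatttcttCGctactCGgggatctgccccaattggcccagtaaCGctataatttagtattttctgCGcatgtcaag
ALG14: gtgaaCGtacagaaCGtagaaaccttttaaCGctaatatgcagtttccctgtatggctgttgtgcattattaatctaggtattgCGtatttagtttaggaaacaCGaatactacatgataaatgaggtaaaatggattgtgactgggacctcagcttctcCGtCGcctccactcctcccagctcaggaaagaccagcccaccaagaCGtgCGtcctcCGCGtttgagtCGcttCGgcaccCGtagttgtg
The DPM3 window holds 18 CpG at 63.6% GC, the ALG14 window 14 at 47.2% and the ALG9 window 5 at 42.8%. ALG9 has 3 listed starts, and the window of a start further downstream holds 29 CpG, so its count depends on the start chosen.

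Dolichol-phosphate mannose synthase, which charges dolichol phosphate with mannose for the steps inside the endoplasmic reticulum, was represented by 2 of its subunits. DPM3 is the small membrane subunit that holds the catalytic subunit in place. It stood at 10.01, 10.36 and 10.41 on the untreated arrays and at 8.84, 9.00 and 8.79 on the treated arrays. Every treated array lay below every untreated array by more than 1 log2 unit. The means were 10.26 ± 0.22 and 8.88 ± 0.11 (SD, n = 3 each), a log2 change of -1.38 ± 0.11 (SE, 95% interval -1.62 to -1.14, limma adjusted p = 3.5e-06). DPM1, the catalytic subunit, stood at 9.68, 9.93 and 9.79 on untreated and at 10.25, 10.18 and 9.77 on treated arrays. The groups overlapped through treated replicate 3, and DPM1 was not called (log2 change 0.27 ± 0.12, limma adjusted p = 0.123). Without that array it was called higher, with its lowest adjusted p over the alternatives (0.00691). ALG5, which charges dolichol phosphate with glucose, stood at 10.28, 10.39 and 10.38 on untreated and at 10.03, 10.03 and 9.85 on treated arrays. Its groups did not overlap, and it fell by 0.38 on the log2 scale (SE 0.08, 1.3-fold, limma adjusted p = 0.00277).

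**Figure D2:**
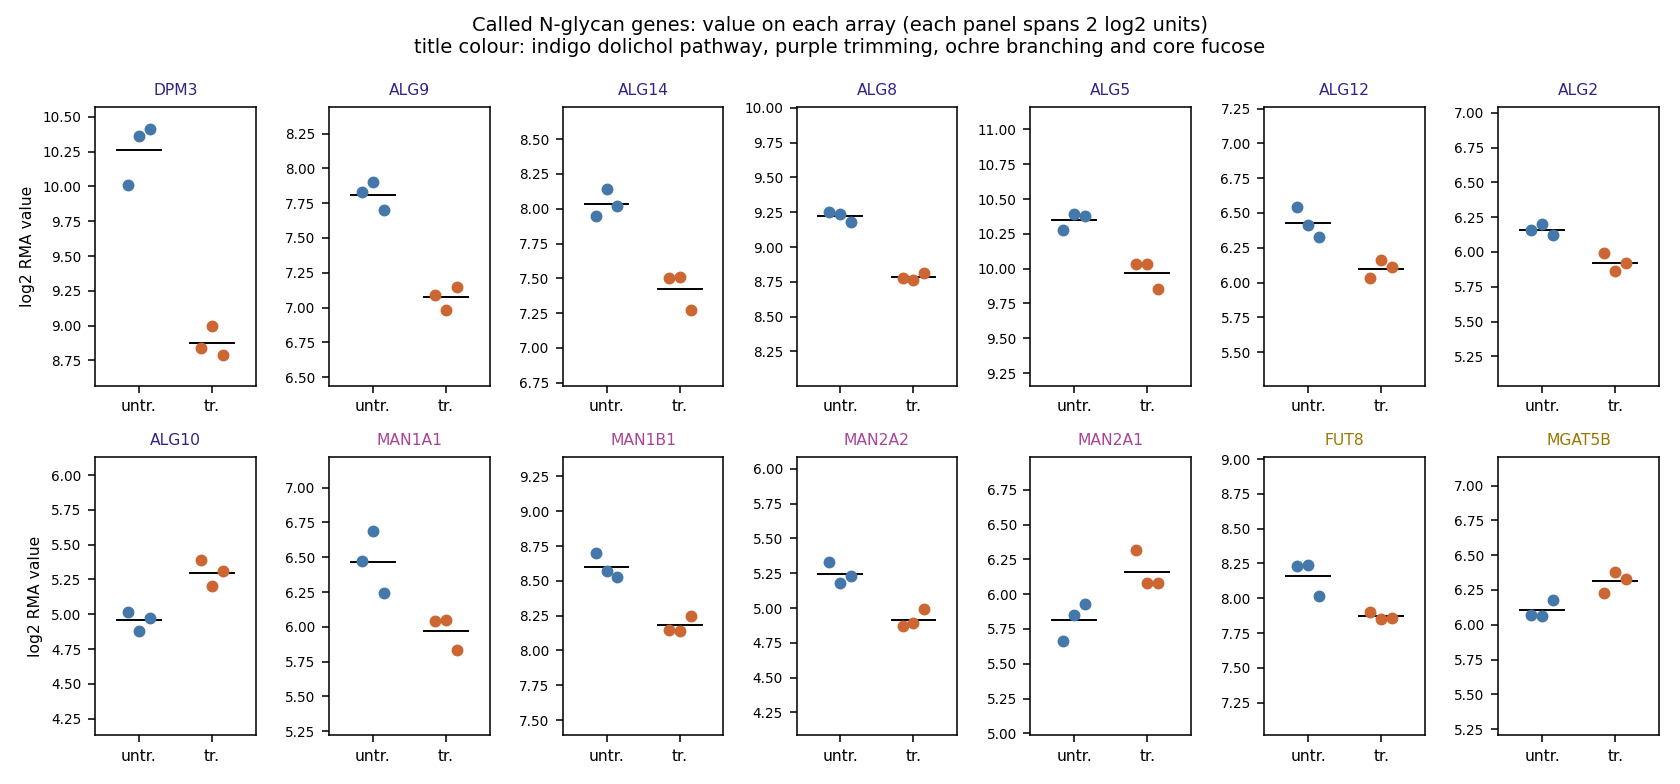
Log2 RMA value (vertical axis) of the 14 called genes on each array, untreated in blue and treated in orange, with a bar at the mean of 3 arrays. Each panel spans the same 2 log2 units around its own centre, so distances can be compared between panels while levels cannot. In all 14 panels the groups do not overlap, and 11 genes are lower and 3 higher in treated cells. The genes shown were chosen by their call on these same arrays, so this separation is no further evidence. Of all probe sets 46.1% do not overlap.

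Assembly on the outer face of the membrane begins with DPAGT1, which places the first N-acetylglucosamine phosphate on dolichol. DPAGT1 went from 8.13 to 8.18 (log2 change 0.05, 95% interval -0.20 to 0.30, limma adjusted p = 0.811). The next sugar is added by ALG13 and ALG14, a catalytic subunit and its membrane anchor. ALG14 stood at 7.95, 8.14 and 8.02 on untreated and at 7.50, 7.51 and 7.27 on treated arrays. All treated values were below all untreated values, with a log2 change of -0.61 ± 0.09 (SE, limma adjusted p = 0.000274). ALG13 lay at 6.03 to 6.46 on untreated and 5.62 to 6.04 on treated arrays, which overlap, and was not called (log2 change -0.35 ± 0.13, limma adjusted p = 0.0616). It was called lower in 4 of 12 alternatives, among them both scalings. ALG1, which adds the first mannose, went from 8.29 to 8.27 (log2 change -0.02, 95% interval -0.20 to 0.16). ALG2, which adds the following mannoses, stood at 6.16, 6.20 and 6.12 on untreated and at 5.99, 5.86 and 5.92 on treated arrays. The groups were apart by a narrow margin, and ALG2 fell by 0.23 on the log2 scale (SE 0.07, limma adjusted p = 0.0243). The call was lost with the replicate block and without untreated replicate 1, untreated replicate 2 or treated replicate 2, the last giving the highest adjusted p, 0.0922. ALG11, which completes the part built on the outer face, was not called (log2 change -0.08, 95% interval -0.25 to 0.10). By the ending of its name, this probe set may also bind transcripts of other genes.

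The later mannoses are added inside the endoplasmic reticulum by ALG3, ALG9 and ALG12 from dolichol-phosphate mannose. ALG3, the first of them, stayed within 8.64 to 8.76 on all 6 arrays and was not called (log2 change -0.06, 95% interval -0.20 to 0.09). ALG9 stood at 7.83, 7.90 and 7.70 on untreated and at 7.09, 6.98 and 7.15 on treated arrays. The groups were separated by more than the range within either, with a log2 change of -0.74 ± 0.08 (SE, limma adjusted p = 3.78e-05). ALG12 stood at 6.54, 6.41 and 6.33 on untreated and at 6.03, 6.16 and 6.11 on treated arrays. It fell by 0.32 on the log2 scale (SE 0.08, 1.25-fold, limma adjusted p = 0.00843), with groups that did not overlap.

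The 3 glucoses that cap the precursor are added in turn by ALG6, ALG8 and ALG10. ALG6 lay at 7.78 to 7.80 on untreated and 7.61 to 7.66 on treated arrays, apart but by little, and was not called (log2 change -0.16 ± 0.07 SE, limma adjusted p = 0.0853). It was called lower after median centring (adjusted p = 0.0194), the lowest of its values over the alternatives, the highest being 0.195. ALG8 stood at 9.25, 9.24 and 9.18 on untreated and at 8.78, 8.76 and 8.81 on treated arrays, 2 tight groups well apart. It fell by 0.44 on the log2 scale (SE 0.07, 1.35-fold, limma adjusted p = 0.000401). ALG10, which adds the last glucose, went the other way, from 5.02, 4.88 and 4.97 on untreated to 5.39, 5.20 and 5.31 on treated arrays. Its lowest treated value was above its highest untreated value, with a log2 change of 0.34 ± 0.08 (SE, 1.27-fold, limma adjusted p = 0.00487). ALG10B, a close paralog, rose by 0.34 as well (5.33 to 5.66, limma adjusted p = 0.00872), and the probe sets of the pair may share signal. In precursor assembly as a whole, 8 of 15 genes were called (53.3%, against 34.8% of all probe sets), with a median log2 change of -0.23. The 7 genes called lower were 46.7%, against 16.8% of all probe sets. A negative value was found in 12 of 15, and in 470 of all 927 named genes.

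The unequal changes of partners can be written as differences within arrays, which removes any shift of a whole array. These differences use the same values as the changes above and are no further evidence. The difference DPM3 minus DPM1 was 0.33 to 0.62 on untreated and -1.40 to -0.98 on treated arrays, a shift of -1.65 on the log2 scale. ALG10 minus ALG8 went from between -4.36 and -4.21 to between -3.55 and -3.40, and ALG10 minus ALG6 from between -2.90 and -2.78 to between -2.46 and -2.24. ALG9 minus ALG12 lay at 1.30 to 1.49 on untreated and 0.82 to 1.06 on treated arrays, smaller on every treated array than on any untreated array. ALG14 minus ALG13 came closest to overlap, at 1.68 to 1.91 against 1.47 to 1.66. These pairs were picked as partners, consecutive enzymes or paralogs with the results known, and no test was made of them. How often other pairs of genes on the array lie apart was not computed.

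**Figure D3:**
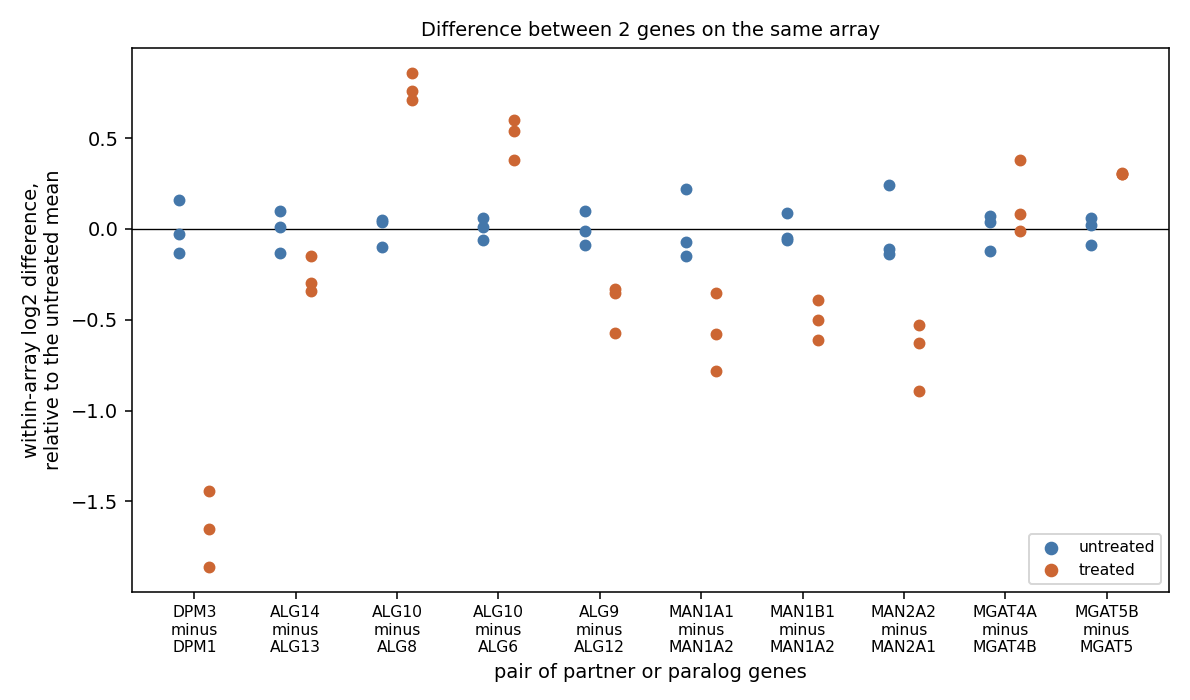
Log2 difference between 2 genes on the same array (vertical axis), relative to the mean of the untreated arrays, for 10 pairs of partner or paralog genes (horizontal axis), with 1 point for each array. Untreated arrays in blue and treated arrays in orange overlap for MGAT4A minus MGAT4B and are apart in the other pairs, by the widest margin for DPM3 minus DPM1. The pairs were picked with the results known, so this separation is no further evidence.

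The oligosaccharyltransferase itself showed no called change in the 4 subunit genes measured, and 0 of 4 had an unadjusted p under 0.05 in limma. RPN1 and RPN2, the ribophorins, DDOST, a subunit needed for the stability of the complex, and DAD1, a small membrane subunit, are shared by both forms of the complex. The genes of the catalytic subunits were not analysed here. DAD1 stood at 11.33 to 11.43 on all 6 arrays, with a log2 change of -0.01 (95% interval -0.16 to 0.14). RPN2 went from 11.94 to 11.98 (0.04, 95% interval -0.14 to 0.23). The DDOST probe sets gave 0.04 (95% interval -0.14 to 0.21) and -0.02 (95% interval -0.19 to 0.16). RPN1 lay at 10.61 to 10.77 on untreated and 10.32 to 10.68 on treated arrays, and its log2 change of -0.21 had the widest interval of the complex (-0.42 to 0.01, limma adjusted p = 0.131). RPN1 was called lower after median centring and without treated replicate 2, where its adjusted p was lowest (0.0285). Apart from RPN1, these intervals leave room for changes of no more than 0.23 on the log2 scale in either direction, less than the falls measured for DPM3, ALG9, ALG14, ALG8 and ALG5. The probe set of RPN2 and the lower of the DDOST sets carry name endings that mark possible binding to other transcripts, as does that of DPAGT1.

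Trimming after transfer was measured by 6 mannosidase genes, of which 4 were called (66.7%, against 34.8% of all probe sets), 3 lower and 1 higher. MAN1B1, the mannosidase of the early secretory pathway that also marks misfolded glycoproteins for disposal, stood at 8.70, 8.57 and 8.53 on untreated and at 8.15, 8.14 and 8.25 on treated arrays. The groups were well apart, with a log2 change of -0.42 ± 0.07 (SE, 1.34-fold lower, limma adjusted p = 0.00116). MAN1A1, a Golgi mannosidase that removes further mannoses, stood at 6.47, 6.69 and 6.24 on untreated and at 6.04, 6.05 and 5.83 on treated arrays. Its spread was wider, the groups still did not overlap, and the log2 change was -0.49 ± 0.11 (SE, 1.41-fold lower, limma adjusted p = 0.00578). Its paralogs MAN1A2 (6.16 to 6.24, log2 change 0.08, 95% interval -0.14 to 0.29) and MAN1C1 (3.58 to 3.59, log2 change 0.01, 95% interval -0.16 to 0.18) were not called, the latter from a probe set at a low level. Only 14% of probe sets had a mean at or below that of MAN1C1. MAN1A1 minus MAN1A2 was 0.15 to 0.52 on untreated and -0.48 to -0.05 on treated arrays, lower on every treated array than on any untreated array.

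MAN2A1 and MAN2A2 encode the Golgi mannosidases that remove the last mannoses before complex branches can form, and they moved in opposite directions. MAN2A1 stood at 5.66, 5.85 and 5.93 on untreated and at 6.32, 6.08 and 6.08 on treated arrays. MAN2A2 stood at 5.33, 5.18 and 5.23 on untreated and at 4.87, 4.89 and 4.99 on treated arrays. Neither gene's groups overlapped. MAN2A1 rose by 0.35 ± 0.10 on the log2 scale (SE, limma adjusted p = 0.0148) and MAN2A2 fell by 0.33 (SE 0.07, limma adjusted p = 0.00487). MAN2A2 minus MAN2A1 on the same array went from between -0.70 and -0.32 to between -1.45 and -1.09. The call of MAN2A1 was lost with the replicate block, without untreated replicate 1 and without treated replicate 1 (adjusted p = 0.0713, its highest over the alternatives, the lowest being 0.00407). Probe set names mark those of MAN1B1 and MAN2A2 as able to bind other transcripts.

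Among the N-acetylglucosaminyltransferases that start branches, changes were small. Of 8 genes of branching and core fucose 2 were called (25.0%, against 34.8% of all probe sets), and all 8 log2 changes lay between -0.29 and 0.22. FUT8, which adds fucose to the innermost N-acetylglucosamine, stood at 8.23, 8.24 and 8.02 on untreated and at 7.90, 7.85 and 7.86 on treated arrays. It fell by 0.29 on the log2 scale (SE 0.08, 1.22-fold, limma adjusted p = 0.0134), with untreated replicate 3 nearest to the treated group. The call was lost without untreated replicate 1 and without untreated replicate 2 (adjusted p = 0.0595, the highest over the alternatives, the lowest being 0.00398). MGAT5B, a relative of MGAT5 that is known mainly from brain and also acts on O-mannose glycans, stood at 6.07, 6.06 and 6.18 on untreated and at 6.23, 6.38 and 6.33 on treated arrays. It rose by 0.21 ± 0.07 on the log2 scale (SE, 1.16-fold) at the edge of the threshold (limma adjusted p = 0.049), and was called in 4 of 12 alternatives, with adjusted p from 0.035 to 0.157.

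The other branching genes were not called. MGAT1, which starts the first branch and opens the way to hybrid and complex glycans, went from 8.14 to 8.27 (log2 change 0.14, 95% interval -0.05 to 0.32), and MGAT2, which starts the branch on the other arm, from 8.87 to 8.71 (-0.15, 95% interval -0.38 to 0.08). MGAT3, which adds the bisecting residue, lay at 5.66 to 6.09 on untreated and 6.06 to 6.13 on treated arrays, which overlap (limma adjusted p = 0.132). MGAT4A and MGAT4B add the same β1,4 branch. MGAT4A lay at 7.76 to 7.84 on untreated and 7.90 to 8.16 on treated arrays and missed the threshold (log2 change 0.22, 95% interval 0.04 to 0.41, limma adjusted p = 0.0562), while MGAT4B went from 6.83 to 6.90 (log2 change 0.07, 95% interval -0.10 to 0.24). The difference between these paralogs on the same array overlapped between groups (0.87 to 1.06 and 0.98 to 1.37). MGAT5, which starts the β1,6 branch that is often extended with lactosamine in cancer cells, lay at 4.69 to 4.98 on untreated and 4.63 to 4.77 on treated arrays, with a log2 change of -0.10 (95% interval -0.29 to 0.10, limma adjusted p = 0.467). MGAT1 was called higher after quantile normalization (adjusted p = 0.0229), MGAT3 without untreated replicate 1 (0.0233), and MGAT4A with array weights and without treated replicate 2 (0.0226).

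Of 5 measured genes of the enzymes that make GDP-mannose, the mannose donor of the precursor, 4 fell and 0 rose. Of all probe sets 16.8% were called lower and 18.0% higher. MPI, which makes mannose 6-phosphate, fell by 0.76 on the log2 scale (8.63 to 7.87, SE 0.07, limma adjusted p = 7.51e-06). The phosphomannomutase genes PMM1 (8.94 to 8.68, log2 change -0.26) and PMM2 (8.39 to 8.10, -0.29) fell, each with a limma adjusted p = 0.0206. GMPPA, the regulatory subunit of GDP-mannose pyrophosphorylase, fell by 0.35 (limma adjusted p = 0.00423), and its catalytic partner GMPPB was not called (log2 change 0.11, limma adjusted p = 0.389). No gene of the 4 accessory oligosaccharyltransferase subunits listed was matched, nor were the 3 of the mannose 6-phosphate tag, and of 11 listed for folding and quality control 2 were measured. CANX, the chaperone calnexin, fell by 0.33 (limma adjusted p = 0.0092), and UGGT2, a glucosyltransferase that senses folding, was not called (0.18, limma adjusted p = 0.326).

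Later and degradative steps went both ways. Among 8 genes that place galactose and sialic acid on the branches ST6GAL1 (log2 change 0.69), ST3GAL6 (0.43) and B4GALT1 (0.37) rose and ST3GAL3 (-0.76) and B4GALT2 (-0.32) fell. Of 4 Golgi sugar transporter genes SLC35C1, which carries GDP-fucose, fell (-0.55) and the others were not called, although 1 of 4 probe sets of SLC35A2 was called higher (log2 change 0.30). In breakdown, the sialidase NEU1 (0.97) and the fucosidase FUCA1 (0.49) rose and the β-mannosidase MANBA (-0.65) and AGA, which cleaves the bond to asparagine (-0.67), fell among 8 genes. Together these neighbouring steps had 5 rises and 10 falls among 27 measured genes of 52 listed, with a median log2 change of -0.09. The rises were 18.5% of these genes, against 18.0% of all probe sets, and the falls 37%, against 16.8%.

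Across the members with a RefSeq promoter entry (28 of 33, not ALG10, RPN1, MAN1A2, MGAT3 or MGAT4A), the 250 bases before the most upstream start held a median of 20 CpG, with a range of 1 to 47. Other genes of the array held a median of 17 (699 genes). The 11 members that fell had a median of 18 and the 15 not called a median of 20. The 2 that rose and had an entry were MAN2A1 with 31 and MGAT5B with 6. The windows of MGAT5B, FUT8 and MAN1A1 overlap the span of the gene itself in the RefSeq table. Their counts may therefore not describe the DNA before the whole gene. Several of these counts depend on the start chosen. Among falling members, FUT8 has 1 to 29 CpG over its listed starts, ALG9 5 to 29 and MAN2A2 4 to 32, while the other 8 hold at least 14 at the start used. Among members not called, MGAT1 has 4 to 30, MAN1C1 4 to 47, MGAT4B 5 to 40 and MGAT5 4 to 18, so no order of the groups is read from these medians. Among all array genes with an entry the median was 22 in the 141 that were called higher, 19 in the 130 called lower and 15 in the 456 not called. These counts rest on the most upstream start too, and the level of the genes was not taken into account. A link between CpG count and change was not tested.

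**Figure D4:**
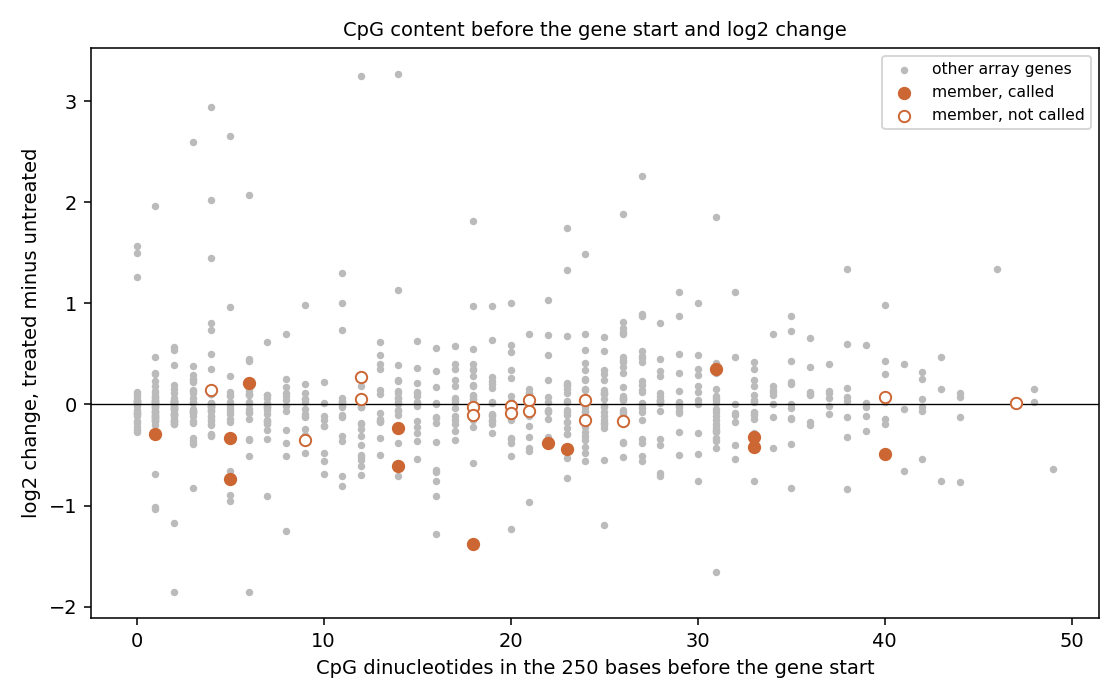
CpG dinucleotides in the 250 bases before the most upstream gene start (horizontal axis) and log2 change in treated minus untreated cells (vertical axis), with 1 point for each gene. The 28 members are in orange, filled where called, and the 699 other array genes in grey. DPM3 lies at 18 CpG, and the positions of FUT8 (1 to 29 over its starts), ALG9 (5 to 29) and MAN2A2 (4 to 32) depend on the start chosen. The windows of MAN1A1, FUT8 and MGAT5B overlap the span of the gene itself.

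Motifs of transcription factors were searched on both strands of the same windows. The letters CCAAT, bound by the factor NF-Y, were found in 14 of 28 members (50%), in 30.3% of other array genes and in 33% of all 27305 genes with an entry. The GC box GGGCGG, bound by Sp1, was found in 16 of 28 (57.1%), against 57.9% of other array genes. The E box CACGTG was found in 3 (10.7%), against 7.58%. The longer endoplasmic reticulum stress element, CCAAT and CCACG with 9 free bases between them, was found in 1 member, ALG12, in 0 of the 699 other array genes and in 21 of 27305 genes (0.0769%). The ALG12 window overlaps CRELD2, its neighbour on the other strand. CCAAT stood before 4 of the 11 members that fell (36.4%) and 9 of the 15 not called (60%). A match describes these letters only.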

How the data were processed

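Affymetrix arrays were run on biotin-labelled cRNA made from Trizol extracts, as the labels' protocols say. The deposited table holds a log2 value for 1259 probe sets on each of 6 arrays. Per the submitters' processing notes the authors used RMA, a method of background correction, normalization between arrays and summary over the probes of a set. RMA settings, array platform and build: not given in the sources used here. The log2 scale was inferred from the range of values, 2.13 to 13.67. RMA compresses changes of dim probe sets, and normalization reduces a change shared by most genes. No detection calls were used. No array pair shared more than 5 identical values, and 0 columns were left unused.

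RefSeq identifiers in probe set names were matched without versions to a RefSeq table (GRCh38.p14, names only). This named 1043 probe sets, 190 had no such identifier and 26 did not match. DDOST, the member with several probe sets, stood by the one with the highest mean. Tests used R 4.3.3 and limma 3.58.1: lmFit with a treatment term on all 1259 probe sets and 6 arrays, then eBayes (two-sided, Benjamini-Hochberg, called at an adjusted p under 0.05), with no filter on dim probe sets. Named by rule were all members found and the called genes of a fixed list of other N-glycan genes. GMPPB, UGGT2, SLC35A2, ALG10B, CRELD2 and the neighbours in the closing section were named after their values were seen. Members, lists, pairs and motifs were chosen with earlier results of these data known. Promoter sequences are RefSeq's, 1 start a gene. Alternatives were quantile normalization, median centring, leaving out the dimmest probe sets (839 left), an intensity trend, array weights, the replicate block, each array left out, averaged probe sets and a threshold of 0.01. In simulated treated against untreated arrays with 200 of 1259 probe sets changed, 100% of those changed 1.5-fold and 100% of those changed 2-fold were called, with 7 false calls, and 0 calls where nothing changed. The simulated noise was normal and independent, so this checks the steps and not the sensitivity.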

Additional observations from a re-analysis of the deposited data

How the results depend on the processing

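Of the 14 called genes, DPM3, ALG9, ALG14, ALG8, ALG5, ALG12, ALG10, MAN1A1, MAN1B1 and MAN2A2 were called in the same direction in all 12 alternative fits, whereas ALG2, MAN2A1, FUT8 and MGAT5B were lost in some. The number of falls was 9 to 14 over the alternatives. Without untreated replicate 3, the untreated array with the word treated in its title, 3 rises and 11 falls were called. The rises numbered 5 with array weights, 1 with the replicate block (10 falls) and 1 at an adjusted p under 0.01 (9 falls). Calls over all probe sets moved as well, from 438 in the main fit to 495, 394 and 330 in these settings. In branching and core fucose 1 gene was called after median centring, 1 with the intensity trend, 1 with the replicate block and 0 at an adjusted p under 0.01, and leaving out single arrays gave 0 (without untreated replicate 2) to 2. In the oligosaccharyltransferase 1 gene (RPN1) was called after median centring, and leaving out single arrays gave 0 to 1. Leaving out the probe sets with a mean level below 4.90 left 839 probe sets and 3 rises among the other N-glycan genes, since ST6GAL1 and ST3GAL6 are dim. The cause of the other differences was not tested. Median centring moved the median change of all probe sets from -0.01 to -0.08 and that of the members from -0.08 to -0.14, and of all calls 38.8% were rises, against 51.8%. It gave 2 rises and 14 falls among the members. Deviations of same-numbered arrays from their group mean correlated at -0.27, 0.04 and -0.11, and 0 of 3 correlated best with its own number. The highest values were for untreated 1 with treated 3 (0.42) and untreated 2 with treated 1 (0.41). With 3 arrays a group this cannot show whether arrays were paired. Why some calls were lost under the block was not tested. Dim members such as MAN1C1 and MGAT5 cannot be set against background here.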

Other observations

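Some members have other measured genes near them in the gene order of the RefSeq table. Distance in bases was not used, so neighbours in this order can lie far apart. Within 5 protein-coding genes on either side, a window chosen after the values were seen, 5 called members had 6 measured neighbours. Of these, 2 were called in the same direction, 2 in the opposite one and 2 were not called. Over all probe sets 34.8% were called. MUC1, which encodes a transmembrane mucin, has 2 protein-coding genes between it and DPM3. MUC1 was higher by 1.30 on the log2 scale (limma adjusted p = 3.3e-05), where DPM3 was lower by 1.38 (a log2 change of -1.38). LAYN, which encodes a hyaluronan receptor, has 2 such genes between it and ALG9. LAYN was higher by 1.94 (limma adjusted p = 2.42e-07), while ALG9 fell by 0.74. GALNT12, which starts O-glycans, has 2 such genes between it and ALG2. GALNT12 fell by 0.96 (limma adjusted p = 5.95e-06), more than ALG2, and TGFBR1, next to ALG2, was not called (log2 change -0.01). ALG10B, with no protein-coding gene between it and ALG10, rose. FUT7, near MAN1B1 in this order, was not called (log2 change -0.16, limma adjusted p = 0.0923).

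The probe sets of DPM3 and DAD1 belong to 79 whose names lack an insert that the other 1180 carry. Of these 79, 10 were called (12.7%), 5 higher and 5 lower, against 428 of the other 1180 (36.3%). Their median log2 change was -0.05, against -0.01 in the others. DPM3 was the 1 probe set among the 79 that was called lower by 1.5-fold or more, against 68 among the other 1180.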
